A study of Homo sapiens with 6 samples.

Results

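Binding of BRACHYURY (T, BRA) was examined around 5 genes of the NODAL pathway, which are the ligand gene NODAL, the antagonist genes LEFTY1, LEFTY2 and CER1, and the co-receptor gene TDGF1. Peaks were taken from all deposited lists where the midpoint lay in a gene body or within 50 kb of it. LEFTY1 and LEFTY2 are neighbours and share a window, which leaves 4 windows of 109 kb (NODAL), 155 kb (LEFTY1 and LEFTY2), 103 kb (CER1) and 108 kb (TDGF1). They held 61 of the 54994 peaks in the 4 lists. The genes were chosen by name and position and not by a measured value, but with earlier results of these data known.

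BRA ChIP-seq was carried out in H9 cells, an established human embryonic stem cell line, after 36 h of differentiation. All groups received 20 ng/ml FGF2 and 10 μM LY294002, an inhibitor of PI3 kinase. FLyA medium added 100 ng/ml activin A and gave cells labelled as endoderm progenitors, whereas FLyB medium added 10 ng/ml BMP4 and gave cells labelled as mesoderm progenitors. For each medium there was 1 library with an R&D Systems antibody and 1 library with a Santa Cruz antibody. Another 2 libraries of input DNA were left out. Each list gives peak positions of 400 bp with no height, score or read count. The labelled cell types could not be checked against markers in such lists. There was 1 library of each medium and antibody, and the experiments with the different antibodies are the only repeats. The study reported a lower signal-to-noise ratio and fewer unique reads for the Santa Cruz experiments. It therefore used the R&D Systems data for its later analyses. Pairing the media within antibody gives 2 pairs, for which an exact two-sided sign-flip test cannot go below p = 0.5, and no other test between media was run. Intervals below cover counting error only. The number of reads behind a peak is unknown, so a gene without a peak in a list is not shown to be unbound.

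NODAL is a secreted ligand of the TGFβ family that signals through activin receptors and SMAD2/3, the same route that activin A uses. TDGF1, also called CRIPTO, is a cell-surface co-receptor that NODAL needs and activin does not. LEFTY1 and LEFTY2 are secreted inhibitors that block NODAL and its co-receptor, and CER1 is a secreted inhibitor that binds NODAL. In the vertebrate gastrula this ligand, its feedback inhibitors and its co-receptor pattern the primitive streak, with the highest signalling at its anterior end.

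R&D Systems peaks were found at all of these genes in both media, and the order of the media differed between genes. With the R&D Systems antibody, FLyA gave more peaks than FLyB at NODAL (7 and 5), at LEFTY1 and LEFTY2 (12 and 6) and at CER1 (7 and 3). TDGF1 went the other way, with 6 peaks in FLyA and 9 in FLyB. Over the 4 windows the R&D Systems lists held 32 peaks in FLyA and 23 in FLyB, which are 7.66 and 6.01 times the mean density of each list over chromosomes 1 to 22 and X. The exact Poisson 95% intervals of these totals, 21.9 to 45.2 and 14.6 to 34.5, overlap, and so do the intervals of the media in every window. The largest gap, at LEFTY1 and LEFTY2, had intervals of 6.20 to 21.0 for FLyA and 2.20 to 13.1 for FLyB. It narrowed to 13 and 10 peaks with a flank of 100 kb, where the gap at CER1, 7 and 3 peaks, was the largest. The Santa Cruz lists, which hold 2436 peaks in FLyA and 3007 in FLyB against 25864 and 23687 in the R&D Systems lists, had 2 member peaks in FLyA and 4 in FLyB.

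**Figure D1:**
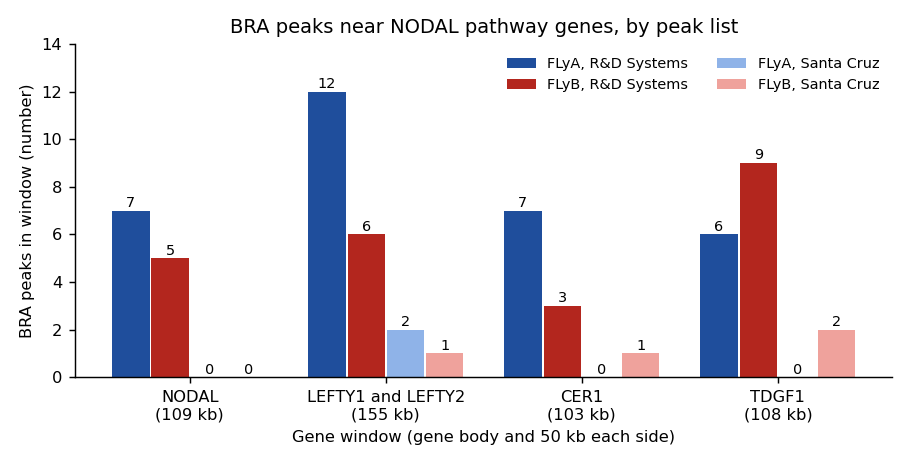
Number of BRA peaks (vertical axis) in each gene window (horizontal axis, with the window width in kb) for the 4 peak lists, 1 bar per list. R&D Systems peaks were more numerous in FLyA at NODAL, LEFTY1 and LEFTY2, and CER1, and in FLyB at TDGF1, while no Santa Cruz bar exceeds 2 peaks.

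To set these counts against the rest of the genome, chromosomes 1 to 22 and X were divided into tiles of the same width as each window. At LEFTY1 and LEFTY2, the FLyA count of 12 was reached by 0.0790% of the 18978 tiles and the FLyB count of 6 by 3.57%. At NODAL, the FLyA count was reached by 0.474% of tiles and the FLyB count by 2.98%. At CER1, the FLyA count was reached by 0.476% of tiles, but the FLyB count of 3 by 9.41%. At TDGF1, the FLyA count was reached by 1.10% of tiles and the FLyB count of 9 by 0.309%. LEFTY1 and LEFTY2 in FLyA and TDGF1 in FLyB thus lay farthest out in their lists, and CER1 in FLyB lay nearest to an ordinary tile. These shares moved with the placing of the tiles: with the grid shifted within a tile, an alternative chosen after seeing the data, that of LEFTY1 and LEFTY2 in FLyA was 0.0369%. Counting only tiles that held a peak of any list, also chosen after seeing the data, gave 14.9% for CER1 in FLyB. Tiles were placed without regard to genes, and many were empty, whereas the genes were chosen with earlier results of these data known. In FLyA, 48.7% of tiles as wide as the NODAL window held no R&D Systems peak.

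**Figure D2:**
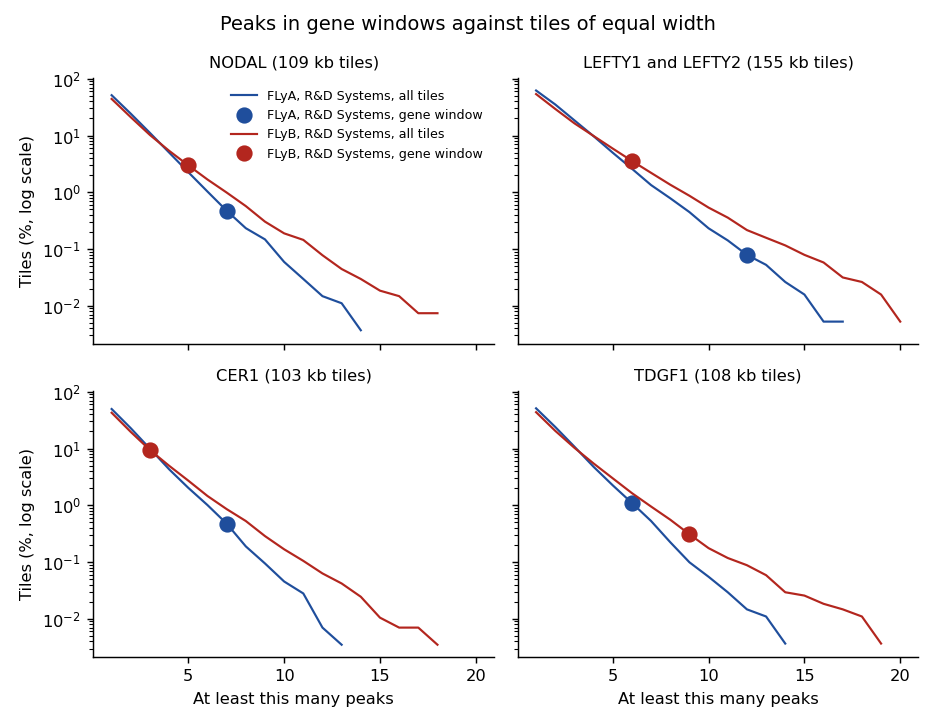
Percentage of genome tiles (vertical axis, log scale) that held at least the number of R&D Systems peaks on the horizontal axis, in 4 panels with tiles as wide as each gene window. Lines show all tiles and circles the gene window in FLyA (blue) or FLyB (red), with the lowest circle at 0.0790% for LEFTY1 and LEFTY2 in FLyA and the highest at 9.41% for CER1 in FLyB.

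Positions below are those of the deposited peaks on hg19, the build in the submitters' processing notes, counted from 1. Gene ends come from the windows and are rounded to 1 kb, so distances from a gene carry that rounding, while distances between peaks are exact. A peak counted as shared with another list if 1 bp or more of it overlapped a peak there. Merging overlapping peaks of the 4 lists gave 42 bound regions, of which 9 were at NODAL, 13 at LEFTY1 and LEFTY2, 8 at CER1 and 12 at TDGF1. Of the 42 regions, 13 were found in both media, or 31.0% (exact 95% interval 17.6 to 47.1%), 19 in FLyA alone and 10 in FLyB alone. All 42 held an R&D Systems peak, and the 13 were in both R&D Systems lists, as were 20.9% of all regions with such a peak and 19.8% of all merged regions. The interval includes both shares.

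**Figure D3:**
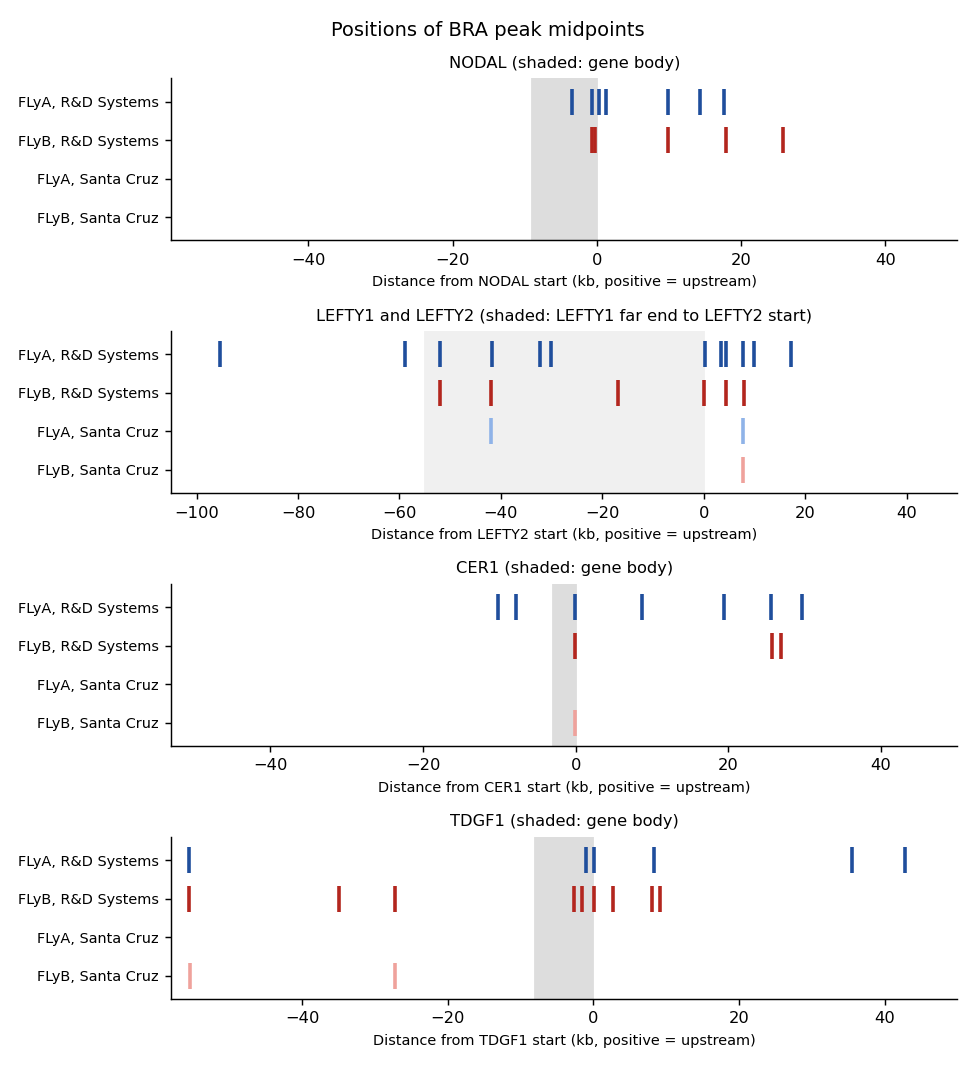
Midpoints of all 61 BRA peaks (vertical ticks) by list (rows) and by distance in kb from the start of NODAL, LEFTY2, CER1 or TDGF1 (horizontal axis, positive values upstream), with the gene body, or the span from the far end of LEFTY1 to the start of LEFTY2, shaded. NODAL and TDGF1 show ticks crowded at the gene start, and only the tick column about 7.8 kb upstream of LEFTY2 is present in all 4 rows.

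NODAL, the ligand gene, lies on the minus strand of chromosome 10, with its start at 72.201 Mb. Its 9 regions were confined to the gene and the side upstream of it: the lowest midpoint lay 3.39 kb inside the gene and the highest 25.88 kb upstream. Of these regions, 5 lay within 5 kb of the start. Around the start the media alternated. FLyA and FLyB shared a site just inside the gene, with R&D Systems peaks at chr10:72200149-72200548 and chr10:72200121-72200520, midpoints 28 bp apart. The next peak towards the start, chr10:72200603-72201002, was called in FLyB only. It was followed by chr10:72201084-72201483, called in FLyA only, with a gap of 81 bp between them. A further FLyA peak lay at chr10:72202043-72202442. Upstream, the media shared sites about 9.9 kb and 17.8 kb from the start, with midpoints 44 bp and 192 bp apart. A FLyA peak between them, chr10:72215042-72215441, had no FLyB counterpart, and the outermost peak, chr10:72226676-72227075, was called in FLyB only. No Santa Cruz peak of either medium lay in the NODAL window, as in 91.8% of tiles of that width in FLyA and 90.5% in FLyB.

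LEFTY1 and LEFTY2, the paired antagonist genes, lie on the minus strand of chromosome 1. The windows place the far end of LEFTY1 at 226.074 Mb and the start of LEFTY2 at 226.129 Mb. The start of LEFTY1 is not given by the windows, so whether a site lies at that start was not worked out. Near LEFTY1, FLyA and FLyB shared a site with R&D Systems peaks at chr1:226076776-226077175 and chr1:226076704-226077103, 72 bp apart, about 2.9 kb above the far end of the gene. The next shared site, about 13 kb above that end, held R&D Systems peaks of both media 239 bp apart and a Santa Cruz FLyA peak, chr1:226086900-226087299, whose midpoint lay 119 bp from the FLyA and 120 bp from the FLyB peak. Between the genes, 2 further peaks were called in FLyA only and 1, chr1:226111783-226112182, in FLyB only.

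At the start of LEFTY2, the FLyA peak chr1:226129124-226129523 and the FLyB peak chr1:226128753-226129152 overlapped by only 29 bp, with midpoints 371 bp apart. This was the weakest overlap among the shared member peaks. In contrast, the site 4.39 kb upstream was called at almost the same place in both media, with midpoints 2 bp apart. A site about 7.8 kb upstream of LEFTY2 was the only member region found in all 4 lists, a property of 0.525% of the 43081 merged regions of the series. Its R&D Systems FLyA, Santa Cruz FLyA and Santa Cruz FLyB peaks began at 226136596, 226136597 and 226136569 on chromosome 1. The R&D Systems FLyB peak, chr1:226136812-226137211, was displaced towards higher coordinates, with its midpoint 216 bp from the R&D Systems FLyA peak and 243 bp from the Santa Cruz FLyB peak. The Santa Cruz FLyB peak thus lay closer to the R&D Systems FLyA peak, at 27 bp, than to the peak of its own medium. The remaining peaks upstream of LEFTY2, 3.41, 9.94 and 17.10 kb from its start, were called in FLyA only, as were the 2 peaks beyond the far end of LEFTY1. Of the 12 FLyA peaks in the window, 5 had a FLyB counterpart, or 41.7% (exact 95% interval 15.2 to 72.3%), against 33.0% of the whole FLyA list. Of the 6 FLyB peaks, 5 had a FLyA counterpart, or 83.3% (35.9 to 99.6%), against 36.1% of the whole FLyB list, and both intervals include the share of the list. LEFTY1 and LEFTY2 are close paralogs. The study speaks of unique reads, but how it defined them, and so how reads that match both genes were treated, is not given in the sources used here. The Santa Cruz counts of 2 in FLyA and 1 in FLyB were reached by 1.06% and 12.9% of tiles.

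CER1, the secreted NODAL antagonist, is a short gene on the minus strand of chromosome 9, with its start at 14.723 Mb. A site at the start was found in 3 lists, with R&D Systems peaks at chr9:14722655-14723054 in FLyA and chr9:14722678-14723077 in FLyB and a Santa Cruz FLyB peak at chr9:14722680-14723079. The R&D Systems peaks lay 23 bp apart and the FLyB peaks of the antibodies 2 bp apart. The Santa Cruz FLyA list had no peak in the CER1 window, as in 92.3% of tiles of that width. The single Santa Cruz FLyB peak is a count reached by 8.94% of tiles. The second site shared by the media lay about 25.6 kb upstream, where the midpoints were 236 bp apart, and a FLyB peak without counterpart followed at chr9:14749701-14750100. The other 5 FLyA peaks had no FLyB counterpart. They lay 10.25 and 7.85 kb below and 8.71, 19.39 and 29.61 kb above the gene start. In the R&D Systems lists, CER1 had the largest ratio of FLyA to FLyB peaks of the 4 windows, with overlapping counting intervals of 2.81 to 14.4 and 0.619 to 8.77.

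TDGF1, the co-receptor gene, lies on the plus strand of chromosome 3, with its start at 46.616 Mb. In the R&D Systems lists it was the only window with more FLyB than FLyA peaks, with overlapping counting intervals of 4.12 to 17.1 and 2.20 to 13.1. At the start, the media shared a site with R&D Systems peaks at chr3:46615762-46616161 in FLyA and chr3:46615725-46616124 in FLyB, 37 bp apart. Inside the gene, a FLyA peak, chr3:46616871-46617270, and a FLyB peak, chr3:46617339-46617738, were separated by a gap of 68 bp, and a second FLyB peak lay at chr3:46618470-46618869. Of the 9 FLyB peaks, 4 lay within 5 kb of the start, against 2 of the 6 FLyA peaks. RefSeq also lists a downstream start of TDGF1, from which no distance was taken, so peaks placed inside the gene may lie upstream of that start. Upstream, a site about 8 kb from the start was called in both media with midpoints 240 bp apart, and FLyB alone had peaks 9.18 and 2.63 kb upstream. The FLyA peaks at 35.51 and 42.86 kb upstream had their nearest FLyB peaks at 26.34 and 33.68 kb.

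Downstream of TDGF1, both antibodies called chr3:46643041-46643440 (R&D Systems) and chr3:46643003-46643402 (Santa Cruz) in FLyB, 38 bp apart, with no FLyA peak of either antibody there. The nearest R&D Systems FLyA peak was 26.17 kb away. This was the only member region found in a single medium with both antibodies. A further peak 35.02 kb from the start, chr3:46650822-46651221, was called in FLyB with the R&D Systems antibody only. A region 55.5 kb from the start, chr3:46671268-46671773, was found in FLyA with the R&D Systems antibody and in FLyB with both. The Santa Cruz FLyB count of 2 was reached by 1.29% of tiles, and the Santa Cruz FLyA list had no peak at TDGF1. RefSeq lists 7 other entries named after CRIPTO or TDGF1, of which 6 are pseudogenes, to which the same limit on reads that match several places applies.

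The media were next compared by the share of peaks found in both. Of the 32 R&D Systems FLyA peaks near these genes, 13 overlapped a FLyB peak, or 40.6% (exact 95% interval 23.7 to 59.4%), against 33.0% of the whole FLyA list. Of the 23 FLyB peaks, 13 overlapped a FLyA peak, or 56.5% (34.5 to 76.8%), against 36.1% of the whole FLyB list. Both intervals include the share of the whole list. For FLyA, the side of it on which the members fell depended on the overlap required. With at least 200 bp of overlap, 8 pairs remained. The FLyA share was then 25.0% against 30.7% of the whole list, and the FLyB share 34.8% against 33.6%. Shared member peaks lay a median of 72 bp apart, from 2 to 371 bp, and shared peaks of the whole list a median of 38 bp apart.

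**Figure D4:**
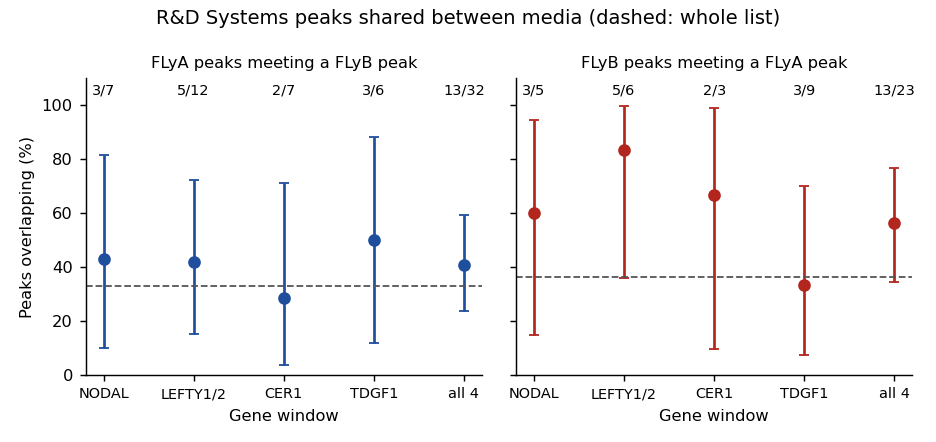
Percentage of R&D Systems peaks in each gene window that overlapped a peak of the other medium, for FLyA peaks (left) and FLyB peaks (right), with exact 95% intervals that cover counting error only, the numbers of peaks above and the share of the whole list as a dashed line. Every interval includes the dashed line, at 33.0% for FLyA and 36.1% for FLyB, and TDGF1 is the only window where the FLyB share falls below it.

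Peaks called in 1 medium often lay near a peak of the other. Of the 19 FLyA peaks without a FLyB counterpart, 14 had a FLyB peak within 10 kb, or 73.7%, against 23.7% of such peaks in the whole FLyA list. Of the 10 FLyB peaks without a FLyA counterpart, 7 had a FLyA peak within 10 kb, or 70.0%, against 31.1% in the whole FLyB list. The part of the peak density given above in these shares was not tested. Peaks farther than 10 kb from the other medium included the FLyA peak 40.33 kb below LEFTY1, which had its nearest FLyB peak at 43.23 kb, and both distal FLyA peaks upstream of TDGF1.

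The second antibody gave the only repeat measurement of a medium. Both Santa Cruz FLyA peaks near these genes overlapped an R&D Systems FLyA peak, against 31.9% of the whole Santa Cruz FLyA list. All 4 Santa Cruz FLyB peaks overlapped an R&D Systems FLyB peak, against 79.0% of the whole Santa Cruz FLyB list. From the other side, 2 of the 32 R&D Systems FLyA peaks met a Santa Cruz FLyA peak, both at LEFTY1 and LEFTY2, against 3.02% of the whole list. Of the 23 R&D Systems FLyB peaks, 4 met a Santa Cruz FLyB peak, against 10.0% of the whole list. With exact intervals of 0.766 to 20.8% and 4.95 to 38.8%, the member shares were not distinguishable from those of the lists at these numbers. Whether both antibodies' lists of a medium were called against the same input is not given in the sources used here.

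Promoter sequences are shown for NODAL, CER1 and TDGF1, each with a site of both media within 1 kb of its start. RefSeq promoters on GRCh38.p14, from 250 bases before to 50 bases after an annotated start, were matched for these 3 of the 5 genes and not for LEFTY1 and LEFTY2, with TDGF1 under its symbol CRIPTO and with 2 starts. They were not aligned to the hg19 peaks, so which of these bases a peak covers was not worked out. Capitals mark motif matches, and each sequence runs 5′ to 3′ on the strand of the gene.
CER1 promoter, chr9:14722684-14722983, minus strand: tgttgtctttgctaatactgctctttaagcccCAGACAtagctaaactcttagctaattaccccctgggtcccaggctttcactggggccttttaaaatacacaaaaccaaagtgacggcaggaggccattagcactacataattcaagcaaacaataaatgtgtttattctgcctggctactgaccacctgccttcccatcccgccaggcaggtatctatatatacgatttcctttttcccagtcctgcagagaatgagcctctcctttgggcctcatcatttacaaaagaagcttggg
NODAL promoter, chr10:70441632-70441931, minus strand: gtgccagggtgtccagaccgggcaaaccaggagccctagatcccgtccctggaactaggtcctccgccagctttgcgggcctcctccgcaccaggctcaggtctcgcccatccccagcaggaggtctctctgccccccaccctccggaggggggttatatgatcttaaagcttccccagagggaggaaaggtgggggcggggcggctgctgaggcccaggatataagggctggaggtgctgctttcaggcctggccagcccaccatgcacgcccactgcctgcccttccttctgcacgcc
TDGF1 promoter at the upstream start, chr3:46574285-46574584, plus strand: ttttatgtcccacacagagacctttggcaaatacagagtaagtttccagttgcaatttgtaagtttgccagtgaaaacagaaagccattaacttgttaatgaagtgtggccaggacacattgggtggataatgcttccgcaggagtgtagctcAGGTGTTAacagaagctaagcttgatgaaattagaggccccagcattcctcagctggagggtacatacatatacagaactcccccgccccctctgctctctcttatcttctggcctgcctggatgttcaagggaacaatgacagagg
TDGF1 promoter at the downstream start, chr3:46577538-46577837, plus strand: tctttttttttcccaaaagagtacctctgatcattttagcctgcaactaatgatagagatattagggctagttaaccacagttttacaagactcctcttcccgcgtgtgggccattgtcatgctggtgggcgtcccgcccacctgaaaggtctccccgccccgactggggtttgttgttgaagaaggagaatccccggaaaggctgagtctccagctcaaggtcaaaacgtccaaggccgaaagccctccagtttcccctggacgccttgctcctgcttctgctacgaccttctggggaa

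The letters of a T-BOX half-site, AGGTGTGA, were searched on both strands and were in none of these 4 windows, as were the shorter GGTGTGA and GTGTGA that lie within it. Of all 35116 RefSeq promoters of this length, 0.980% held AGGTGTGA, 3.45% GGTGTGA and 12.0% GTGTGA. AGGTGTNA, a looser form chosen after these sequences were seen, matched the upstream TDGF1 promoter 97 bases before the start as AGGTGTTA, marked in capitals. It was in 2.61% of all promoters. CAGACA, the letters of a SMAD element, matched the CER1 promoter 218 bases before the start and was in 16.9% of all promoters. AATCCACA, the letters of a FOXH1 element, was in none of the 4 windows and in 0.817% of all promoters. The NODAL promoter held no match to any motif searched. Its GC content was 66.0%, against 45.3% for CER1 and a median of 58.7% over all promoters.

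The distances of peaks from the edges of the windows varied widely. The peaks just inside lay 2.43 kb (TDGF1, far side) to 55.6 kb (NODAL, far side) from an edge, and the peaks just outside lay 8.22 kb (LEFTY2, upstream side) to 165 kb (TDGF1, upstream side) beyond it. No peak of any list was called within 100 kb outside the CER1 window. By their order in RefSeq, the genes next to the members are EIF4EBP2 and PALD1 for NODAL, TMEM63A and SDE2 outside the LEFTY pair, ZDHHC21 and FREM1 for CER1, and LRRC2 and FAM240A for TDGF1. Peaks were not assigned between the members and these neighbours.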

How the data were processed

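Chromatin from H9 cells was immunoprecipitated with an R&D Systems or a Santa Cruz anti-BRA antibody, and the DNA was sequenced (Illumina Genome Analyzer II). The submitters' processing notes name Bowtie 0.12.7 and hg19, and the study used MACS to find peaks. Lists were deposited per library. The lists deposited by the authors hold the start and end of each peak, in bp, with a width of 400 bp throughout and no other value. The track lines of the Santa Cruz lists name 1e-12, and no threshold for the R&D Systems lists is given in the sources used here. Windows were read from the rule for the members, with positions in Mb rounded to 1 kb. Overlaps were counted in Python 3.11.15 (SciPy 1.17.1, NumPy 2.4.6), checked with bedtools 2.31.1 and tested on simulated data. Figures were drawn with matplotlib 3.10.9. Shares have exact (Clopper-Pearson) and counts exact Poisson 95% intervals, which treat peaks as independent. Tiles ran from the first to the last peak of each chromosome. All 5 genes are named. The members and lists were chosen with earlier results of these data known. Alternatives covered the flank, the placing and merging of peaks, the overlap, the antibody and the tiles. Motifs within peaks and the wider list of NODAL pathway genes set out in the design need a genome or annotation on hg19 and were not analysed here.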

Additional observations from a re-analysis of the deposited data

Results flagged for a closer look

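The order of the media differed between the antibodies over the 4 windows together and at CER1, but not in every window. At LEFTY1 and LEFTY2, with 2 Santa Cruz peaks in FLyA and 1 in FLyB, the order was that of the R&D Systems lists. The same held at TDGF1, with 0 Santa Cruz peaks in FLyA and 2 in FLyB, while NODAL had no Santa Cruz peak. Over the 4 windows together, the R&D Systems lists held 32 FLyA and 23 FLyB peaks, whereas the Santa Cruz lists held 2 and 4, a FLyA minus FLyB difference of -2. In the CER1 window the R&D Systems lists held 7 and 3 peaks and the Santa Cruz lists 0 and 1, a difference of -1. Both are marked because the antibodies moved in opposite directions, and the difference between them was not tested. The whole Santa Cruz lists also held fewer peaks in FLyA (2436) than in FLyB (3007), in the opposite order to the R&D Systems lists. The Santa Cruz counts in the windows are small, and the study reported a lower signal-to-noise ratio and fewer unique reads with that antibody.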

How the results depend on the processing

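The order of the media in the R&D Systems lists was kept in all 4 windows with flanks of 20 or 100 kb, with any overlap of peak and window and with overlapping peaks of a list merged. In the Santa Cruz lists alone, 1 of 4 FLyB member peaks met a FLyA peak, a share of 25.0% with an exact 95% interval of 0.631 to 80.6%, which includes the R&D Systems share of 56.5%. In the whole Santa Cruz FLyB list the share was 8.28%. A flank of 20 kb left 1 FLyB peak at CER1 and 3 FLyA peaks at TDGF1 in the R&D Systems lists and 1 Santa Cruz FLyB peak at TDGF1, and a flank of 100 kb gave 10 R&D Systems FLyB peaks at LEFTY1 and LEFTY2. Merging peaks across gaps of up to 500 bp left 39 regions. The tile backgrounds that follow were chosen after seeing the data. With only tiles that held a peak of any list, the share reaching a window's R&D Systems count ran from 0.106% (LEFTY1 and LEFTY2, FLyA) to 14.9% (CER1, FLyB), and with the grid shifted within a tile from 0.0369% to 9.62% for the same windows. Motif alternatives within peaks were not run. With the media paired within antibody, added after seeing the data, the FLyA minus FLyB difference over the 4 windows was 9 peaks for R&D Systems and -2 for Santa Cruz (exact two-sided sign-flip test over 2 pairs, p = 1, smallest possible 0.5). No read numbers accompany the peaks, which limits any statement on a single site.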
